A study of Mus musculus with 7 samples.

Results

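The genes described here are the interleukin-6 family ligands and receptor chains, that is, 5 ligands (Il6, Il11, Lif, Osm and Clcf1) and 5 receptor chains (Il6ra, Il11ra1, Lifr, Osmr and Il6st). They were chosen by symbol among the 57010 gene identifiers of the deposited count table, and all 10 were present. RNA-Seq was performed on mature white adipocytes freed with collagenase from perigonadal adipose tissue of 3 FFA2 fl/fl mice and 4 Adipoq-F2-KO mice. FFA2 fl/fl mice, called floxed controls here, carry Ffar2 alleles flanked by loxP sites and no Cre. In Adipoq-F2-KO mice, the same floxed alleles were deleted by a Cre recombinase under the adiponectin promoter, which acts in adipocytes and leaves Ffar2 in place in other cells of the fat pad. All mice were male littermates aged 20 weeks, co-housed, fed normal chow and otherwise untreated. The comparison asked which transcripts of mature adipocytes differ at baseline when FFA2, the receptor for short-chain fatty acids, is deleted.

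Cytokines of this family share gp130, the protein encoded by Il6st, as the chain that carries the signal into the cell. Interleukin-6 and interleukin-11 bind a private receptor chain (encoded by Il6ra and Il11ra1) and then a pair of gp130 molecules, whereas leukemia inhibitory factor, cardiotrophin-like cytokine factor 1 and oncostatin M signal through gp130 paired with the chain encoded by Lifr or Osmr. Engaged receptors activate JAK kinases and STAT3, and Socs3, itself a STAT3 target, closes the loop. In adipose tissue, interleukin-6 comes from adipocytes as well as from macrophages and stromal cells, and oncostatin M is mainly a product of myeloid cells.

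Deletion was visible in each library. Ffar2 was counted 1404, 1346 and 1094 times in floxed controls 1 to 3, against 67, 38, 48 and 76 times in Adipoq-F2-KO 1 to 4 (log2 fold change -4.36 ± 0.22 SE, edgeR adjusted p = 8.0e-06). Total counts were between 30478997 and 39992605 per library, so that a gene with 0 counts in a library could still have been present at up to 0.150 to 0.197 CPM (counts scaled to the library total), a limit that covers counting error only. Adipocyte markers were abundant, with Fabp4 at 11620 ± 915 and Adipoq at 3605 ± 155 normalized CPM in floxed controls (SD, n = 3). Genes of the mitochondrial chromosome took 4.41% to 5.77% of counts in floxed controls and 6.61% to 10.3% in Adipoq-F2-KO, ranges that did not overlap. Adipoq-F2-KO library 2 stood apart in a list of epididymis and germ cell markers, which summed to 109.9 normalized CPM against 0 to 22.3 in the other libraries. In library 2 this sum came from germ cell genes, led by Prm2 (54.1) and Tnp2 (31.0), and the epididymal genes of the list had 0 counts. Labels number the mice but do not describe independent cohorts, so p-values measure the spread between these mice.

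Il6 and Osmr were the members that passed the test for a genotype difference, and the 250 bases before their RefSeq transcription starts are shown for that reason (build GRCm38.p6, 5′ to 3′). The Il6 window was chr5:30012864-30013113 on the plus strand and the Osmr window chr15:6874314-6874563 on the minus strand. Capitals mark each match, on either strand, to the letters of 5 motifs, namely NF-kB (GGGNNNTTCC), AP-1 (TGANTCA), C/EBP (TTGNNCAA), STAT (TTCNNNGAA) and the core of the cAMP response element (TGACGT).
Il6: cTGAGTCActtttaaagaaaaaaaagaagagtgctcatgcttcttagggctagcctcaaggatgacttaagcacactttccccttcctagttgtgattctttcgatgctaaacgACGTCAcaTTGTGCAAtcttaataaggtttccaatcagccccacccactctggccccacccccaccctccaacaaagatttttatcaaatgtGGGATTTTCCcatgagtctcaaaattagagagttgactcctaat
Osmr: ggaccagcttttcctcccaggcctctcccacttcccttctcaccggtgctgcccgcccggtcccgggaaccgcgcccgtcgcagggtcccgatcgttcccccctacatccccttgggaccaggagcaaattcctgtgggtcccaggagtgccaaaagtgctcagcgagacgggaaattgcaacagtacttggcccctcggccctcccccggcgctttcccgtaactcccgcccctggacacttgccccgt

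In the Il6 window, with positions counted back from the base before the start (-1), the capitals mark from left to right an AP-1 match at -249 to -243, the cAMP response element core on the minus strand at -136 to -131, a C/EBP match at -128 to -121 and an NF-kB match at -44 to -35. None of these matches overlapped another. In the Osmr window, 0 matches to the 5 motifs were found, which says only that these letters are not in these bases. Of all 32851 RefSeq promoter windows of the same length, 4.65% held the NF-kB letters, 6.75% the AP-1 letters, 5.65% the C/EBP letters, 7.02% the STAT letters and 6.47% the cAMP response element core. Promoter windows were found for 8 of the 10 members, and among these the AP-1 letters also occurred in Il11 (-98 to -92) and Lif (-228 to -222), whereas the other matches were in Il6 alone and the STAT letters were in 0 members. The matches are descriptions of sequence, and binding was not measured.

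At baseline, the shared chain Il6st was the most abundant family transcript of floxed adipocytes and the ligands other than Il6 were rare. Levels were compared between genes as normalized CPM per kilobase of exon. The length used is the summed exon length of each gene (2428 bases for Il6, 12113 for Osmr), not that of the transcripts expressed. Ranks and ratios between genes depend on it. In FFA2 fl/fl, Il6st stood at 33.9 ± 2.36 (SD, n = 3), and its lowest library (31.2) lay above the highest of any other member. Il6 was next at 9.97 ± 2.55, and its libraries (7.76 to 12.8) spanned those of Il11ra1 (9.57 to 10.3), so that the order of these 2 genes was not resolved. Lifr (5.97 ± 0.213), Osmr (5.89 ± 0.638) and Il6ra (5.65 ± 0.441) formed a group whose library ranges overlapped one another. The 4 remaining ligands followed far lower, with Clcf1 at 0.502 ± 0.300, Lif at 0.411 ± 0.242, Osm at 0.156 ± 0.137 and Il11 at 0.0892 ± 0.0287, and each overlapped its neighbor in this order.

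**Figure D1:**
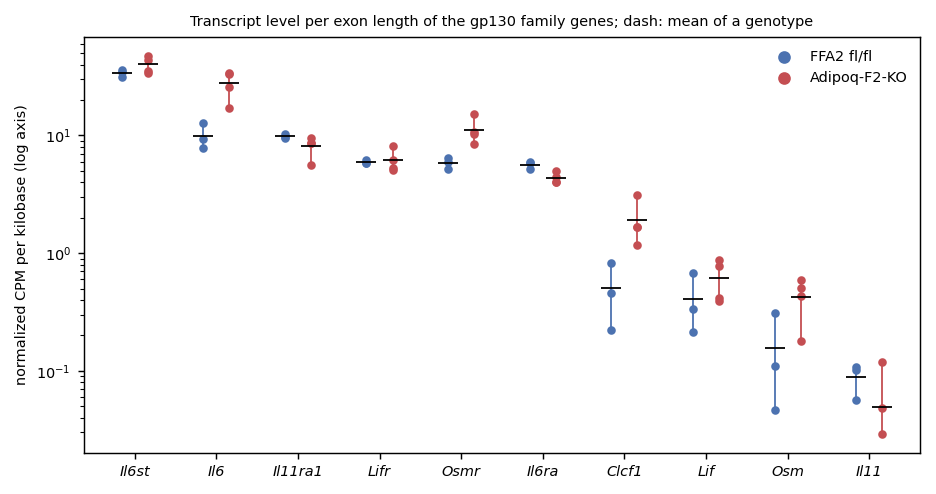
Normalized CPM per kilobase of exon (log axis) of the 10 family genes, ordered by their mean in floxed controls; points are libraries (blue FFA2 fl/fl, n = 3; red Adipoq-F2-KO, n = 4), lines their range and dashes the means. Il6st is highest in both genotypes, Il6 and Osmr move up in Adipoq-F2-KO, and the Adipoq-F2-KO library with 0 counts of Il11 has no point on the log axis.

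In Adipoq-F2-KO, the order of the receptor chains was different. Il6st remained first at 40.2 ± 6.57 normalized CPM per kilobase (SD, n = 4), and Il6 followed at 27.7 ± 7.86, its highest library (34.28) just reaching the lowest of Il6st (34.27). Osmr moved from the fifth to the third place at 11.2 ± 2.81, ahead of Il11ra1 (8.07 ± 1.68) and Lifr (6.20 ± 1.43), although its libraries overlapped those of Il11ra1. Every Lifr library lay above every Il6ra library in this genotype (lowest Lifr 5.05, highest Il6ra 4.98). Clcf1 and Lif, which overlapped in floxed controls, did not overlap here, with 1.17 in the lowest library of Clcf1 and 0.877 in the highest of Lif. Il6 made up 88.0% to 90.3% of the summed ligand level per kilobase in floxed controls and 87.6% to 91.2% in Adipoq-F2-KO, so its share of the ligand transcripts overlapped between genotypes.

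Of the 10 members, 9 had enough counts to be tested and 2 of them, Il6 and Osmr, were called (edgeR adjusted p under 0.05), both higher in Adipoq-F2-KO. Among all 17039 genes tested, 173 were called, or 1.02%, with 0.798% higher and 0.217% lower in Adipoq-F2-KO. Normalized CPM did not overlap between genotypes for 5 of the 9 members (Il6, Clcf1 and Osmr higher, Il6ra and Il11ra1 lower), against 17.6% of all tested genes. The median log2 fold change of the 9 members was 0.59, and that of all tested genes was 0.0037. As an alternative, DESeq2 called 4 members, adding Clcf1 and Il6ra, against 992 genes or 5.82% of those tested. Of the 9 members, 4 had an unadjusted edgeR p under 0.05, against 17.9% of all tested genes, the share beside which the same counts of the gene lists are to be read.

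**Figure D2:**
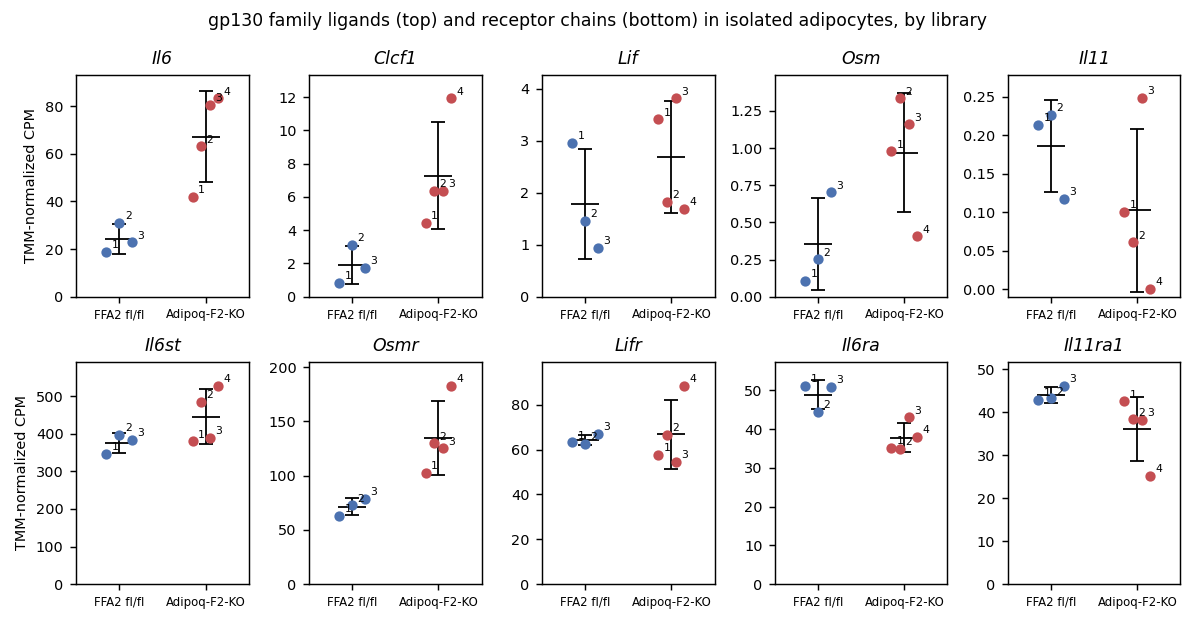
TMM-normalized CPM of each family gene in each library (numbered points), with ligands above and receptor chains below; dashes are genotype means and bars SD (n = 3 FFA2 fl/fl, n = 4 Adipoq-F2-KO). For Il6, Clcf1 and Osmr, the 4 Adipoq-F2-KO libraries lie above the 3 FFA2 fl/fl libraries, for Il6ra and Il11ra1 they lie below, and the other 5 genes overlap.

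Among the ligands, Il6, which encodes the founding cytokine of the family, was higher in Adipoq-F2-KO. Il6 (ENSMUSG00000025746, chr5:30218112-30224979, plus strand, coordinates as in the deposited table) had 18.8, 31.0 and 22.8 normalized CPM in floxed controls 1 to 3 and 41.8, 63.2, 80.4 and 83.2 in Adipoq-F2-KO libraries 1 to 4. The lowest Adipoq-F2-KO library was above the highest floxed library, and Adipoq-F2-KO 3 and 4 were the highest. Means were 24.2 ± 6.19 (SD, n = 3) and 67.2 ± 19.1 (SD, n = 4), a 2.77-fold difference. The log2 fold change was 1.47 ± 0.24 (SE, 95% interval 0.95 to 1.99) with an edgeR adjusted p of 0.0332. In an exact two-sided permutation test over the 35 possible assignments of genotype, p was 0.0571, and the smallest p this design allows is 0.0286. The call was lost when FFA2 fl/fl 1 (edgeR adjusted p = 0.196), FFA2 fl/fl 3 (0.135), Adipoq-F2-KO 2 (0.0570) or Adipoq-F2-KO 3 (0.0546) was left out. Over all 7 fits that left out 1 library, the log2 fold change was between 1.32 and 1.69.

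Clcf1, whose product signals through the CNTF receptor with Lifr and gp130, had the largest fold change among the tested members but did not pass the test. Clcf1 had 32, 124 and 60 counts in floxed controls and 178, 210, 231 and 352 in Adipoq-F2-KO, which corresponded to 0.854, 3.12 and 1.76 and to 4.46, 6.37, 6.38 and 11.9 normalized CPM. The genotypes did not overlap, and Adipoq-F2-KO 4 was the highest library. The log2 fold change was 1.92 ± 0.44 (SE, 95% interval 0.97 to 2.88; edgeR adjusted p = 0.0599), and the means differed 3.81-fold. With DESeq2 the adjusted p was 3.5e-04.

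Transcripts of the 3 other ligands were sparse. Lif, the leukemia inhibitory factor gene, had 2.96, 1.46 and 0.937 normalized CPM in floxed controls and 3.41, 1.82, 3.81 and 1.69 in Adipoq-F2-KO, and the genotypes overlapped (log2 fold change 0.59, 95% interval -0.39 to 1.57, edgeR adjusted p = 0.527). The log2 fold change of Lif was 1.16 without FFA2 fl/fl 1, 0.30 without FFA2 fl/fl 3 and 0.37 without Adipoq-F2-KO 3. Osm, the oncostatin M gene, had 4, 10 and 24 counts in floxed controls and 39, 44, 42 and 12 in Adipoq-F2-KO. Osm was thus high in Adipoq-F2-KO 1 to 3 but within the floxed range in Adipoq-F2-KO 4, and its interval included 0 (log2 fold change 1.46, 95% interval -0.14 to 3.06, edgeR adjusted p = 0.322), and without FFA2 fl/fl 3 it was 2.42. Il11 had between 4 and 9 counts in floxed controls and between 0 and 9 in Adipoq-F2-KO and was too low to be tested. At these depths a difference in Il11 was not detectable.

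Among the receptor chains, Osmr, the signaling partner of gp130 for oncostatin M, was higher in Adipoq-F2-KO. Osmr (ENSMUSG00000022146, chr15:6843058-6904450, minus strand, as in the deposited table) had 63.1, 72.6 and 78.4 normalized CPM in floxed controls and 102, 130, 125 and 183 in Adipoq-F2-KO. The genotypes did not overlap, and Adipoq-F2-KO 4 stood above the other 3 Adipoq-F2-KO libraries. Means were 71.4 ± 7.73 (SD, n = 3) and 135 ± 34.1 (SD, n = 4), a 1.89-fold difference. The log2 fold change was 0.92 ± 0.17 (SE, 95% interval 0.55 to 1.30; edgeR adjusted p = 0.0396), and the exact permutation p was 0.0571. The call was lost without FFA2 fl/fl 1 (edgeR adjusted p = 0.207), FFA2 fl/fl 2 (0.0805), FFA2 fl/fl 3 (0.135), Adipoq-F2-KO 2 (0.0639) or Adipoq-F2-KO 3 (0.0681). Over all 7 fits that left out 1 library, the log2 fold change was between 0.74 and 1.03.

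Lifr, the neighbor of Osmr on chromosome 15 (7120095-7226970, plus strand) and the alternative partner of gp130, had no resolved difference. Lifr had 63.3, 62.7 and 66.9 normalized CPM in floxed controls and 57.5, 66.7, 54.5 and 88.5 in Adipoq-F2-KO. Adipoq-F2-KO 4 was the highest of the 7 libraries, and the other Adipoq-F2-KO libraries lay within or below the floxed range. The log2 fold change was 0.05 (95% interval -0.27 to 0.38, edgeR adjusted p = 0.887), and without Adipoq-F2-KO 4 it was -0.11. The ratio of Osmr to Lifr level per kilobase was 0.887 to 1.04 in floxed controls and 1.58 to 2.05 in Adipoq-F2-KO, so Osmr exceeded Lifr in every Adipoq-F2-KO library.

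Il6ra, which encodes the ligand-binding chain for interleukin-6, was lower in every Adipoq-F2-KO library but did not pass the test. It had 51.2, 44.5 and 50.9 normalized CPM in floxed controls and 35.1, 34.9, 43.0 and 38.0 in Adipoq-F2-KO. The highest Adipoq-F2-KO library (43.0) was just under the lowest floxed library (44.5). Means were 48.9 ± 3.81 (SD, n = 3) and 37.8 ± 3.78 (SD, n = 4), and the log2 fold change was -0.37 ± 0.11 (SE, 95% interval -0.60 to -0.14; edgeR adjusted p = 0.113). DESeq2 (adjusted p = 0.0436) and edgeR with genes kept from 1 count on (adjusted p = 0.0445; 4.92% of 28515 genes called) placed it past the threshold. The ratio of Il6 to Il6ra level per kilobase was 1.31 to 2.48 in floxed controls and 4.24 to 7.79 in Adipoq-F2-KO, and that of Osmr to Il6ra was 0.879 to 1.17 and 2.08 to 3.43.

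Il11ra1, the private chain for interleukin-11, had 42.8, 43.2 and 46.2 normalized CPM in floxed controls and 42.5, 38.4, 38.2 and 25.3 in Adipoq-F2-KO. The genotypes were separated by a narrow gap, and Adipoq-F2-KO 4 was far below the rest (log2 fold change -0.29, 95% interval -0.62 to 0.05, edgeR adjusted p = 0.350). This value is uncertain, because the span counted for Il11ra1 overlaps other genes on both strands, the near-identical Il11ra2 also exists, and the strand setting of the counting is not stated.

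Il6st, the gp130 gene, had 347, 397 and 384 normalized CPM in floxed controls and 380, 486, 389 and 529 in Adipoq-F2-KO. Adipoq-F2-KO 2 and 4 were above the floxed range and the other 2 within it. Means were 376 ± 26.2 (SD, n = 3) and 446 ± 72.9 (SD, n = 4), and the interval of the log2 fold change (0.25, 95% interval -0.03 to 0.52, edgeR adjusted p = 0.331) included 0. The ratio of Il6ra to Il6st level per kilobase was 0.144 to 0.190 in floxed controls and 0.0924 to 0.142 in Adipoq-F2-KO.

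**Figure D3:**
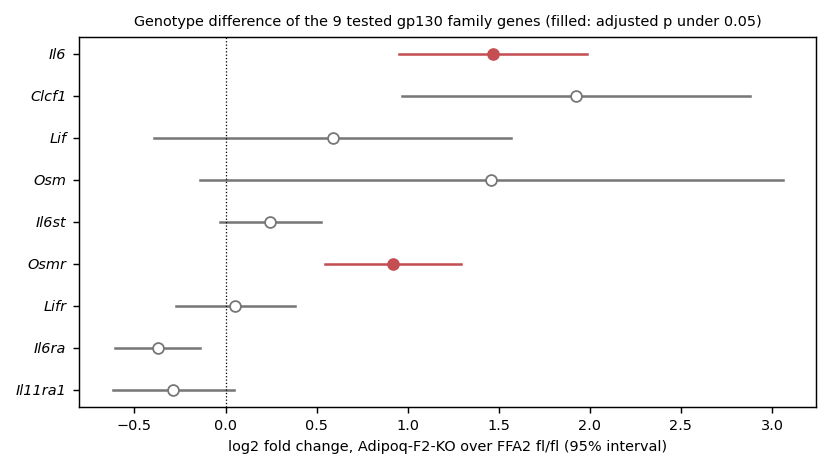
Log2 fold change of Adipoq-F2-KO over FFA2 fl/fl with 95% interval (edgeR) for the 9 tested members, filled where the adjusted p was under 0.05. Il6 (1.47) and Osmr (0.92) passed, Clcf1 (1.92) had a larger fold change with a longer interval, and Il6ra (-0.37) lay below 0 without passing.

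Other ligands and receptors of the gp130 family were mostly expressed at low levels, with Cntfr the most abundant. Of 11 such genes, 7 could be tested and 0 were called by edgeR or by DESeq2, with 1 at an unadjusted p under 0.05 and a median log2 fold change of -0.14. Cntfr, the chain that captures CLCF1, had 19.8 ± 2.93 normalized CPM in floxed controls (SD, n = 3) and 15.5 ± 1.53 in Adipoq-F2-KO (SD, n = 4, edgeR adjusted p = 0.199). Ctf1, the cardiotrophin gene, had 4.26 ± 0.384 and 3.19 ± 1.34, and Il27ra, a receptor chain for interleukin-27, had 1.69 ± 0.264 and 1.44 ± 0.713. Without FFA2 fl/fl 3, the median of the list was 0.0018.

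In the signal relay between receptor and nucleus (JAK kinases, STAT factors, adaptors and phosphatases), 0 of 13 tested genes were called by edgeR, 6 had an unadjusted p under 0.05 and DESeq2 called 4, all higher. Stat3, the main transcription factor of the pathway, had 319 ± 17.4 normalized CPM in floxed controls (SD, n = 3) and 419 ± 52.5 in Adipoq-F2-KO (SD, n = 4, edgeR adjusted p = 0.107), with no overlap between genotypes. Jak1 had 227 ± 2.14 and 290 ± 40.2, and Ptpn11, the SHP2 phosphatase gene, 359 ± 21.4 and 306 ± 14.9, neither past the threshold in edgeR. Neither gene overlapped between genotypes, and DESeq2 called Jak1 (DESeq2 adjusted p = 0.0393) but not Ptpn11 (0.0907). Jak2, singled out after its values were seen, had 52.7, 56.8 and 55.4 normalized CPM in floxed controls and 75.4, 94.3, 90.0 and 172 in Adipoq-F2-KO (log2 fold change 0.97, edgeR adjusted p = 0.0696). The median log2 fold change of the list was 0.14.

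Genes for shedding of the interleukin-6 receptor, by which a soluble receptor is released from the cell, numbered 4, and 0 were called by edgeR, with 3 at an unadjusted p under 0.05 and 2 called higher by DESeq2. The sheddase gene Adam10 had 46.3 ± 0.604 normalized CPM in floxed controls (SD, n = 3) and 55.9 ± 2.90 in Adipoq-F2-KO (SD, n = 4). The genes of the iRhom proteins, which carry the sheddase ADAM17 to the cell surface, differed in direction, Rhbdf2 having 30.4 ± 5.22 and 47.9 ± 6.69 (edgeR adjusted p = 0.0556) and Rhbdf1 78.4 ± 7.51 and 70.1 ± 8.80. Adam17 itself, the fourth of the list, had 30.9 ± 2.33 and 42.7 ± 5.43.

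Among 18 feedback and target genes of STAT3, 3 were called, all higher in Adipoq-F2-KO, 9 had an unadjusted p under 0.05 and DESeq2 called 6. The median log2 fold change was 0.28, and 0.46 without FFA2 fl/fl 2. Icam1, an adhesion molecule for leukocytes, had 81.2 ± 23.2 normalized CPM in floxed controls (SD, n = 3) and 182 ± 54.1 in Adipoq-F2-KO (SD, n = 4, log2 fold change 1.16, edgeR adjusted p = 0.0464). Bcl3, a nuclear cofactor of NF-kB, rose from 60.4 ± 13.4 to 110 ± 20.7 (edgeR adjusted p = 0.0447). Hif1a, the hypoxia-inducible transcription factor gene, rose from 114 ± 15.6 to 183 ± 25.0 (edgeR adjusted p = 0.0411). All 3 calls were lost without FFA2 fl/fl 1 (edgeR adjusted p 0.207 to 0.241), FFA2 fl/fl 2 (0.0527 to 0.0885), FFA2 fl/fl 3 (0.104 to 0.187), Adipoq-F2-KO 2 (0.0570 to 0.07205) or Adipoq-F2-KO 3 (0.0734 to 0.0755), and those of Icam1 and Hif1a also without Adipoq-F2-KO 4 (0.0523). These 3 genes are also known targets of NF-kB. Socs3, the feedback inhibitor most closely tied to gp130 and named here outside the rule, had 427, 676 and 510 normalized CPM in floxed controls and 495, 651, 689 and 449 in Adipoq-F2-KO, so that the genotypes overlapped (log2 fold change 0.09, 95% interval -0.30 to 0.48, edgeR adjusted p = 0.842).

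Of 15 acute-phase genes, the class that interleukin-6 induces in liver, 10 were tested and 3 were called, all higher, with 5 at an unadjusted p under 0.05 and 4 called by DESeq2. Lcn2, the lipocalin that binds bacterial siderophores, had 5.15, 4.08 and 5.21 normalized CPM in floxed controls and 8.72, 10.8, 12.7 and 13.8 in Adipoq-F2-KO (log2 fold change 1.26, edgeR adjusted p = 0.0332). Steap4, a metalloreductase of adipocytes, rose from 773 ± 41.8 (SD, n = 3) to 1117 ± 108.6 (SD, n = 4, edgeR adjusted p = 0.0411). Saa3, a serum amyloid A gene of fat and macrophages, was called just under the threshold (edgeR adjusted p = 0.04995), with means of 14.6 ± 2.00 and 22.8 ± 2.34. All 3 calls were lost without FFA2 fl/fl 1 (edgeR adjusted p 0.195 to 0.244), FFA2 fl/fl 2 (0.0599 to 0.0845), FFA2 fl/fl 3 (0.0886 to 0.192), Adipoq-F2-KO 2 (0.0570 to 0.0701) or Adipoq-F2-KO 3 (0.0546 to 0.0834), and that of Saa3 also without Adipoq-F2-KO 1 (0.0574) or 4 (0.0659). The most abundant gene of the list, Hp (haptoglobin), had 3959 ± 715 and 4013 ± 399, and the fibrinogen genes Fgb and Fgg had 0 counts in every library.

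**Figure D4:**
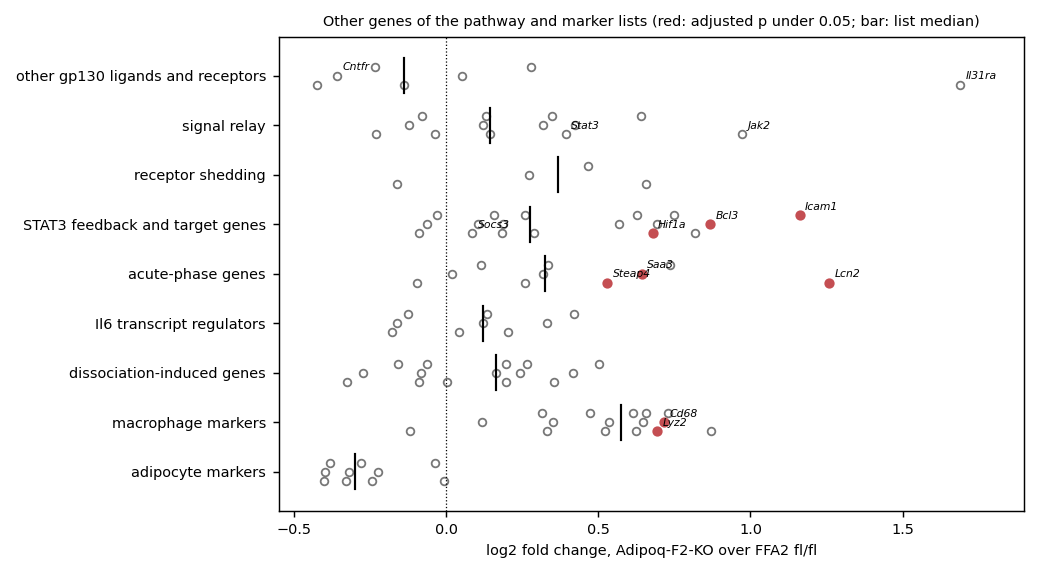
Log2 fold change (Adipoq-F2-KO over FFA2 fl/fl) of each tested gene in 9 lists; red points have an edgeR adjusted p under 0.05 and black bars are list medians. Called genes appear among STAT3 targets (3), acute-phase genes (3) and macrophage markers (2), whereas the macrophage median lies at 0.58 and the adipocyte median at -0.30.

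Genes that control the stability of Il6 mRNA or its induction were counted as a further list, and 0 of 9 were called by edgeR or DESeq2 (2 at an unadjusted p under 0.05, median log2 fold change 0.12). Zfp36, which encodes the mRNA-destabilizing protein tristetraprolin, had 1466 ± 205 normalized CPM in floxed controls (SD, n = 3) and 1509 ± 97.9 in Adipoq-F2-KO (SD, n = 4). Zfp36l1, its paralog, had 479 ± 60.1 and 602 ± 112, and Nfkbiz, an inducible cofactor of NF-kB, 589 ± 118 and 520 ± 114.

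Il6 was followed closely across the 7 libraries by other genes. By Pearson correlation of log2 normalized CPM over all tested genes, the 5 most alike were Rab8b (r = 0.991), Fbxo30 (r = 0.991), Sbno2 (r = 0.987), Casp4 (r = 0.987) and Tpp2 (r = 0.986). Rab8b, a small GTPase of vesicle traffic, had 19.2 normalized CPM in floxed controls and 39.6 in Adipoq-F2-KO, and Sbno2 had 258 and 439. Among the members, Clcf1 (r = 0.961, rank 56 of the tested genes) and Osmr (r = 0.941, rank 140) were most like Il6, whereas Il6ra (r = -0.72) and Il11ra1 (r = -0.72) were among the negative values. These correlations describe 7 libraries that differ by genotype, and the libraries of a genotype share its difference.

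Markers of other cell types moved with the genotype beside these results. Of 16 macrophage markers, 15 were higher and 2 were called, Cd68 (log2 fold change 0.72, edgeR adjusted p = 0.0416) and Lyz2 (0.69, edgeR adjusted p = 0.0383), while 11 had an unadjusted p under 0.05 and DESeq2 called 8, all higher. Both calls were lost without FFA2 fl/fl 1 (edgeR adjusted p = 0.227 and 0.201), FFA2 fl/fl 3 (0.164 and 0.155), Adipoq-F2-KO 2 (0.06775 and 0.0639) or Adipoq-F2-KO 3 (0.0689 for both), and that of Cd68 also without Adipoq-F2-KO 1 (0.0567) or 4 (0.05455). In the list, 0 markers were at 0 in all libraries. The marker that was lower was Cd163 (log2 fold change -0.12). Normalized CPM did not overlap between genotypes for 7 of the 16, all higher, against 17.6% of all tested genes. The summed level of the 16 markers was 558 to 733 normalized CPM in floxed controls and 818 to 1018 in Adipoq-F2-KO. This was a 1.42-fold difference of means without overlap, against 2.77-fold for Il6 and 1.89-fold for Osmr. The most abundant marker in the sum was Cd74 (188 to 274 in floxed controls, 262 to 366 in Adipoq-F2-KO), which is not confined to macrophages. FFA2 fl/fl 2 was the highest floxed library in Cd74 and in the sum. Adgre1, the F4/80 gene, ranged from 10.1 to 12.9 in floxed controls and from 15.9 to 25.96 in Adipoq-F2-KO. Only 4 of the macrophage markers, the 2 called genes with Adgre1 and Csf1r, were compared with Il6 across libraries. Lyz2 ranked 33 in likeness (r = 0.973), Adgre1 366 (r = 0.905), Cd68 383 (r = 0.902) and Csf1r 1501 (r = 0.770). The part of macrophage RNA in the Il6, Osmr and Clcf1 results was not tested, and in bulk RNA more cells of a type and more RNA per cell cannot be told apart.

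The 10 adipocyte markers were all lower in Adipoq-F2-KO with 0 called by edgeR (5 at an unadjusted p under 0.05 and 2 by DESeq2). Fabp4 (log2 fold change -0.006) and Retn (-0.038) were nearly unchanged. They summed to 48240 to 53570 normalized CPM in floxed controls and 36210 to 47860 in Adipoq-F2-KO, ranges that did not overlap. The most abundant were Cfd, Fabp4 and Plin4. The 9 endothelial markers, led by Cdh5, Pecam1 and Cldn5, were all higher with 0 called by edgeR (7 at an unadjusted p under 0.05 and 5 by DESeq2). Their sums were 998 to 1333 in floxed controls and 1410 to 2262 in Adipoq-F2-KO. This was a 1.44-fold difference of means without overlap, beside 1.42-fold for the macrophage sum. The highest endothelial sum was in Adipoq-F2-KO 4. That library was also highest in Il6, Clcf1, Osmr, Lifr, Il6st and the macrophage sum and lowest in the adipocyte sum. The 10 fibroblast progenitor markers, led by Col3a1, Col1a2 and Dcn, summed to 1248 to 1581 and 1536 to 1838, ranges that overlapped. Of these genes, 0 were called by edgeR (4 at an unadjusted p under 0.05 and 1 by DESeq2). Most were nevertheless higher in Adipoq-F2-KO (8 of 10, list median 0.34 in log2 fold change), 2 of them without overlap between genotypes. The other 2 went down, among them Col1a2 (log2 fold change -0.21), one of the genes that lead the sum. The part of these cells and of the mitochondrial share in the results was not tested.

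Dissociation of tissue induces immediate early and heat shock genes, and the summed level of a list of both overlapped between the genotypes. The sum of 15 such genes, led by Egr1, Fosb and Fos, was 11160 to 13750 normalized CPM in floxed controls and 11360 to 12710 in Adipoq-F2-KO. These leading genes are immediate early genes, so the sum says little about the heat shock genes. Of these genes, 9 were higher in Adipoq-F2-KO (60%, against 50.45% of all tested genes), 6 were lower and 0 were called by edgeR or DESeq2. The 2 at an unadjusted p under 0.05, Dusp1 and Nr4a1, were both higher (log2 fold changes 0.35 and 0.24). Fos and Junb were also counted among the STAT3 targets. Fos, the only gene of this list compared with Il6 across the 7 libraries, had an r of -0.10. The library with the highest sum was FFA2 fl/fl 2, which was also the highest floxed library in Il6. Among Adipoq-F2-KO libraries, library 1 had both the lowest sum and the lowest Il6. Library 4, the highest in Il6, had a sum of 12060, below libraries 2 (12500) and 3 (12710). Among floxed controls, FFA2 fl/fl 1 had a higher sum than FFA2 fl/fl 3 (12450 against 11160) but a lower Il6 (18.8 against 22.8). The part of dissociation in the Il6 result was not tested.

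**Figure D5:**
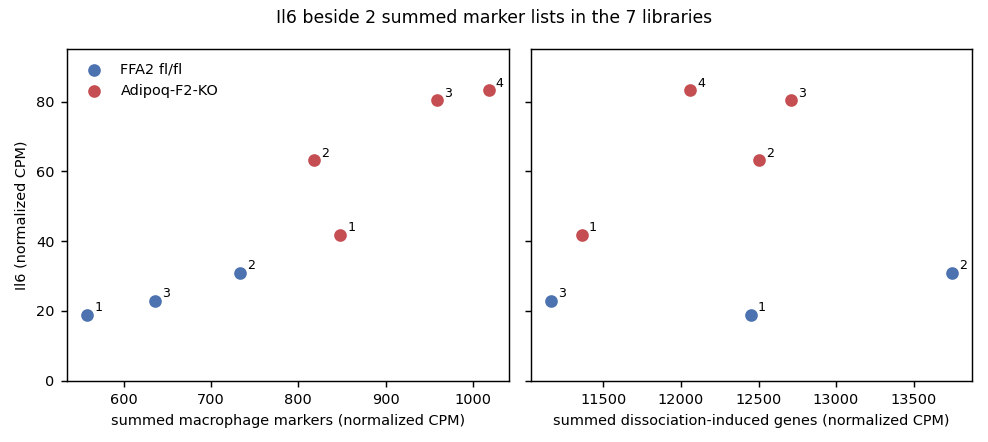
Il6 (normalized CPM) against the summed macrophage markers (left) and the summed dissociation-induced genes (right), both in normalized CPM, in the 7 libraries, numbered by replicate. The genotypes separate along Il6 and along the macrophage sum (558 to 733 against 818 to 1018), and overlap along the dissociation sum.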

How the data were processed

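RNA from mature perigonadal adipocytes was extracted with TRIzol, made into stranded libraries after poly-A selection (TruSeq Stranded mRNA) and sequenced as paired reads of 150 bases on a NovaSeq X Plus. The submitters' processing notes name Trimmomatic, STAR, featureCounts, DESeq2, GRCm38 and mm10. The deposited values are counts of reads per gene, which the authors left unnormalized, with each gene's coordinates and exon length. Versions and strand options are not given in the sources used here. Gene starts matched GRCm38 for 0 of the 10 members and gene spans overlapped it for 4, so gene coordinates are printed as deposited, without a build, and GRCm38.p6 was used for promoters only. Most counts between 1 and 49 were even (85.5% to 88.8% per library), so both mates were probably counted, and the limit for 0 counts is 3 fragments or 6 counts. Symbols were found for 52029 of 57010 identifiers. All sample columns were used (0 left out).

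Genotypes came from the sample labels. Genes were filtered with filterByExpr, scaled by TMM (factors 0.968 to 1.02) and tested with the quasi-likelihood test of edgeR 4.0.16 (R 4.3.3) with genotype as the only term, and the Benjamini-Hochberg adjustment covered all 17039 tested genes. Normalized CPM are TMM-scaled, levels per kilobase were divided by the deposited exon length, and likeness to Il6 used log2(normalized CPM + 0.5). Exact permutation tests (scipy 1.17.1) used the difference in means. The edgeR script was tested on simulated data with 200 genes given a log2 change of 1. On average over 3 draws, 57% of these were recovered and 3.35% of the calls were false. Alternatives were DESeq2 1.42.0, its size factors, genes kept from 1 count on, halved counts, library totals without mitochondrial genes and the most abundant unnamed gene, a replicate block, and leaving out each library.

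The members and the gene lists were chosen with earlier results of these data known. Named were the 10 members, Ffar2, of each list the called genes or otherwise the 3 with the highest mean normalized CPM, and the 5 genes most like Il6. Jak2, Socs3, Adam17, Hp, Fgb, Fgg, Adipoq, Retn, Adgre1, Csf1r, Cd74, Cd163, Dusp1, Nr4a1, Hspa1a, Hspa1b, Dnajb1, Hsp90aa1, Junb and Ly6g were added after their values were seen. No pair of libraries within a genotype agreed within sampling noise, and all 7 were kept.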

Additional observations from a re-analysis of the deposited data

How the results depend on the processing

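The number of genes called, 173, became 1403 with genes kept from 1 count on and 992 with DESeq2, and the number of members called, 2, became 4 under each of these (Il6, Osmr, Clcf1 and Il6ra). Leaving out 1 library at a time gave 1 to 178 genes and 0 to 2 members called, with 1 gene without FFA2 fl/fl 1, 41 without FFA2 fl/fl 2, 5 without FFA2 fl/fl 3, 11 without Adipoq-F2-KO 2 and 20 without Adipoq-F2-KO 3. The members without overlap numbered 5 under both other scalings tried for this count and 5 or 6 when 1 library was left out. Scaling by DESeq2 size factors, halved counts and library totals without mitochondrial genes left 2 members called. Of 117 alternative fold changes of members, 2 changed sign, both of Lifr, which was -0.11 with the replicate block and -0.11 to 0.14 when 1 library was left out. The 2 changes are not separate, because the value of -0.11 arose without Adipoq-F2-KO 4, and the replicate block also takes that library out of the genotype difference.

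Same-numbered libraries did not deviate together (correlations 0.013, 0.008 and -0.036), so the numbers were not taken as pairs, and not every library was most like its own number. With the replicate block, 224 genes and 3 members were called, Clcf1 (log2 fold change 1.72, edgeR adjusted p = 0.0329) being added. Adipoq-F2-KO 4 has no floxed library of its number, so in this fit it did not inform the genotype difference. Of 144 alternative list medians, 7 changed sign when 1 library was left out, within -0.31 to 0.0018 for the other gp130 ligands and receptors, -0.65 to 0.77 for T cell markers, -1.49 to 2.86 for B cell markers and -0.48 to 0.65 for mast cell markers. The cause of these changes was not tested. With 3 and 4 mice the exact test cannot go below 0.0286, and the counts of Il11 and Osm were too low for small differences to be seen.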

Other observations

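In the cell type lists not described above, 0 genes were called by edgeR. At an unadjusted p under 0.05 there were 3 mesothelial, 3 epididymis and germ cell, 2 erythroid and 1 mast cell marker, and DESeq2 called 2 epididymis and germ cell markers and 1 mast cell marker. Of 9 neutrophil markers, 2 were tested (S100a8 and Elane, followed by Retnlg), 0 were called, and Ly6g had 0 counts in every library. Sums of T cell markers (Lck, Cd4 and Trac the most abundant) were 1.60 to 6.32 normalized CPM in floxed controls and 1.52 to 3.43 in Adipoq-F2-KO, and 0 of the 3 tested were called. Sums of B cell markers (Cd79a, Pax5 and Cd79b) reached 23.2 in FFA2 fl/fl 2, whereas Adipoq-F2-KO 3 had 12.1, against 0.907 to 5.49 in the other libraries, and 0 of 5 were called. The mast cell sum was 12.2 to 14.8 in floxed controls and 16.03 to 30.8 in Adipoq-F2-KO, most of it Kit, which is not confined to mast cells, followed by Mcpt4 and Cpa3 at lower levels, and 0 of 4 tested were called. Mesothelial markers (Krt8, Krt19 and Wt1) were highest in FFA2 fl/fl 1 (58.4 normalized CPM, against 10.9 to 20.7 in the others), with 0 of 8 called. Erythroid markers (Hbb-bs, Hba-a1 and Hba-a2) summed to 97.5 to 223 and 209 to 372, with 0 of 5 tested called. Of 8 epididymis and germ cell markers, 4 were tested and 0 were called, Prm2, Tnp2 and Prm1 being the most abundant.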
